A study of Danio rerio with 2 samples.

Results

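The genes described here encode receptors, SMAD proteins and Id targets of bone morphogenetic protein (BMP) signalling, including the endothelial receptor Alk1. They were selected by name from a list of 9 names: acvrl1, eng, bmpr2a, bmpr2b, smad1, smad5, smad9, id1 and id3. The table of gene names used matched 8 of the 9, which gave 8 genes of the 21699 listed in the deposited tables. It names both bmpr2 genes without a paralog letter, so they are told apart below by their Ensembl IDs and neither is assigned to bmpr2a or bmpr2b. The name eng, for the co-receptor endoglin, matched no gene and endoglin is not analysed here.

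BMP ligands bind a complex of type I and type II receptors on the cell surface. The type II receptor phosphorylates the type I receptor, which phosphorylates SMAD1, SMAD5 or SMAD9, and these enter the nucleus with SMAD4 and switch on targets such as the Id genes. In endothelial cells the ligands BMP9 and BMP10 signal through the type I receptor Alk1, encoded by acvrl1, with endoglin as co-receptor. Loss of acvrl1 in zebrafish leads to arteriovenous shunts, and mutations of ACVRL1 and ENG in humans cause hereditary haemorrhagic telangiectasia.

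Transcripts were measured by RNA sequencing of GFP+ cells sorted by flow cytometry from Tg(kdrl:GFP) zebrafish embryos at 44 hours post fertilization. The transgene uses the promoter of the VEGF receptor gene kdrl to mark endothelial cells. The embryos came from crosses of fish carrying 1 allele of gbf1, tsu3994, in heterozygous form; gbf1 encodes an exchange factor for ARF GTPases at the Golgi. One group is 1 library from embryos of normal morphology, called the sibling library, whose genotypes the labels do not give, and the other is 1 library from embryos of mutant morphology, called the mutant library. The number of embryos pooled in each is not given in the sources used here.

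There are no replicates, so each difference below is between these 2 libraries and has no test. The libraries held 5657525 (sibling) and 6169373 (mutant) expected counts, which are read counts per gene with reads that match several genes divided between them. Levels are in FPKM, fragments per kilobase of gene length scaled by the fragments of the library. Intervals are 95% intervals for counting error only, so differences that arise between pools of embryos, sorts or preparations lie outside them. Most genes stood somewhat higher per library total in the mutant library: the median gene had a count ratio, mutant over sibling and per library total, of 1.21, and a log2 fold of FPKM + 1 of 0.27. The 10 genes of highest mean FPKM held 35.9% of the sibling counts and 27.7% of the mutant counts. With those genes left out of the library totals, the median log2 fold was 0.11. The sort did not hold endothelial cells alone. The globin gene hbae1.2 was at 159111 FPKM in siblings and 118855 in mutants, whereas kdrl was at 6.38 and 21.3 FPKM. In such samples, fewer cells of a type and less RNA per cell cannot be told apart.

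All 8 genes had more counts per library total in the mutant library, although the log2 folds of both bmpr2 genes fell below 0 once the median gene was set to 0. acvrl1 differed most in proportion, with a count ratio of 3.85 from a very low level, and the 2 bmpr2 genes differed least, at 1.21 and 1.09. The SMAD genes lay between 1.29 and 1.80 and the Id genes at 1.33 (id1) and 1.84 (id3). The count interval lay above 1 for 5 of the 8 genes, namely acvrl1, smad5, smad9, id1 and id3, and below 1 for none. Of all 13680 genes with at least 20 counts in either library, the interval was above 1 for 40.1% and below 1 for 7.51%. Set against the median gene in place of 1, the interval lay above it for 4 of the 8 (acvrl1, smad9, id1 and id3) and below it for none, beside 20.3% and 19.4% of all genes. For id1 this was by a narrow margin, since its interval began at 1.22.

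A second measure was the log2 fold of FPKM + 1, mutant over sibling. A gene was called higher or lower at 2-fold, if it had at least 5 FPKM and 20 expected counts in at least 1 library. A gene could thus pass solely through the library in which it was higher. Of the 8 genes, 6 passed these limits, and none of the 6 was called in either direction. Of all 8641 genes that passed, 7.72% were called higher and 1.05% lower. smad1 and smad9 reached 5 FPKM in the mutant library alone. acvrl1 and the bmpr2 gene ENSDARG00000020057 stayed under 5 FPKM in both. With the limit at 1 FPKM, all 8 genes passed and acvrl1 alone was called higher and none lower, beside 7.00% and 0.932% of all genes. acvrl1 reached 20 counts in the mutant library alone.

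**Figure D1:**
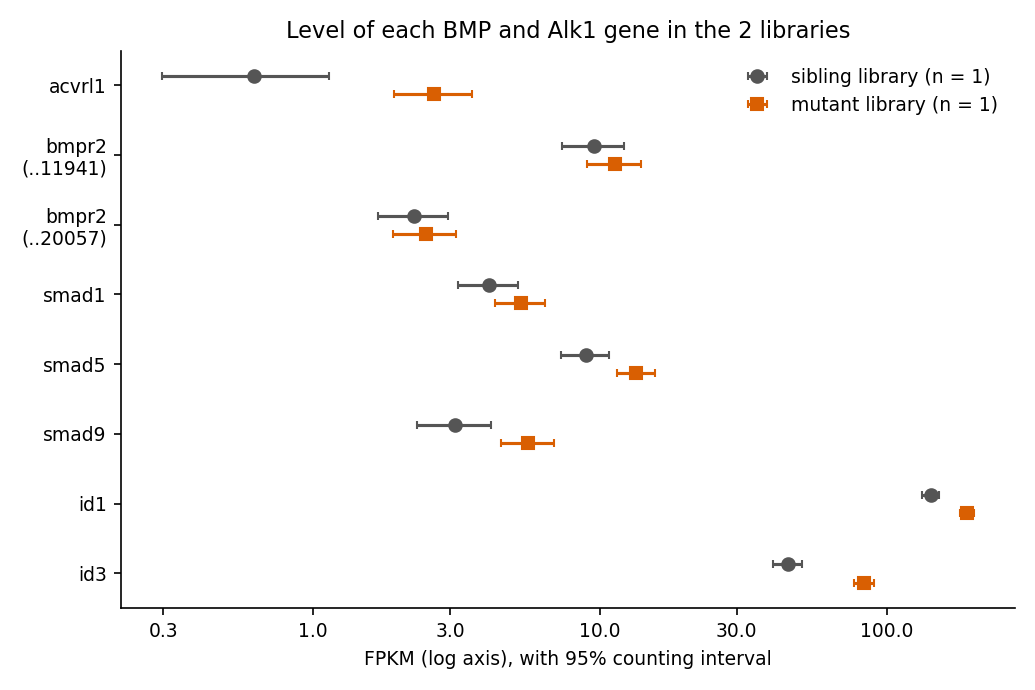
Level in FPKM (log axis) of the 8 genes in the sibling (circles) and mutant (squares) library, 1 library each, with bars for the 95% counting interval. The Id genes stand highest in both libraries, and acvrl1, at 0.62 FPKM in siblings and 2.65 in mutants, is the one receptor gene whose intervals do not overlap. The last 5 digits of the Ensembl ID mark the bmpr2 genes.

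Among the receptors, acvrl1 (ENSDARG00000018179) was listed with 10 counts and 0.62 FPKM in the sibling library and with 42 counts and 2.65 FPKM in the mutant library. The counting intervals of the 2 levels, 0.297 to 1.14 and 1.91 to 3.58 FPKM, did not overlap. The count ratio was 3.85 (1.90 to 8.61), a wide interval because of the low sibling count. The log2 fold of FPKM + 1 was 1.17. Of the genes past the limits, which acvrl1 itself did not pass, 4.90% had a log2 fold as high and 1.33% a count ratio as high. Ratios of genes with so few counts scatter more by counting error, and no share among such genes was computed. The listed gene length, a mean over its 3 transcripts, was 2777 bases in siblings and 2514 in mutants, so a small part of the FPKM difference comes from length and not from counts.

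The 2 bmpr2 genes encode type II receptors that pair with Alk1 and with other type I receptors; human BMPR2 is known for its mutations in pulmonary arterial hypertension. ENSDARG00000011941 was at 9.54 FPKM in the sibling library and 11.3 in the mutant one, with 65.1 and 86 counts. Its count ratio of 1.21 (0.869 to 1.70) was that of the median gene. ENSDARG00000020057 was at 2.25 and 2.47 FPKM, with 53 and 63 counts and a ratio of 1.09 (0.744 to 1.60). Their intervals hold 1, and the log2 folds of 0.22 and 0.09 turned to -0.05 and -0.18 once the median gene was set to 0. The listed length was 1195 (siblings) and 1225 (mutants) bases for ENSDARG00000011941, and 4030 in both libraries for ENSDARG00000020057. Most of the FPKM gap between the 2 genes therefore comes from length, since their counts were close.

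The ratio of 2 genes within a library does not depend on how the libraries are scaled. Per count of bmpr2 ENSDARG00000011941, acvrl1 had 0.154 counts in siblings and 0.488 in mutants, a change of 3.17-fold (1.43 to 7.60). Per count of ENSDARG00000020057 the change was 3.53-fold (1.55 to 8.62). The 2 bmpr2 genes kept their ratio to each other within a change of 1.11 (0.664 to 1.86), an interval that allows a difference of either sign. Transcripts of acvrl1 thus stood higher relative to those of both bmpr2 genes in the mutant library.

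acvrl1 was a small part of the type I receptor transcripts in both libraries. Over the 6 type I receptor genes listed, it made up 1.51% of the summed FPKM in siblings and 4.74% in mutants. acvr1l, the zebrafish receptor Alk8, which acts in early dorsoventral patterning, held 57.4% and 42.6%. Over the 6 type II receptor genes the bmpr2 gene ENSDARG00000011941 held 20.5% and 22.4%, and ENSDARG00000020057 held 4.82% and 4.90%. Per count of ENSDARG00000020057, however, ENSDARG00000011941 had 1.226 counts in siblings and 1.365 in mutants. The gap between their FPKM shares thus comes mostly from the listed lengths.

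The count ratios of the receptor-regulated SMAD genes lay between those of the bmpr2 genes and that of acvrl1. smad1 (ENSDARG00000027199) was at 4.10 FPKM in the sibling library and 5.29 in the mutant one, with 72 and 101 counts and a ratio of 1.29 (0.941 to 1.76). smad5 (ENSDARG00000037238), which in zebrafish is needed for ventral fates in the early embryo, was at 8.93 and 13.4 FPKM, with 111 and 175 counts and a ratio of 1.45 (1.13 to 1.85). smad9 (ENSDARG00000021938) was at 3.13 and 5.62 FPKM, with 47 and 92 counts and a ratio of 1.80 (1.25 to 2.61). smad9 thus lay above the median gene by its whole interval, while those of smad1 and smad5 held it.

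Within the SMAD genes no pair changed its ratio beyond counting error. smad9 per smad1 count changed 1.40-fold (0.856 to 2.28), smad9 per smad5 count 1.24-fold (0.797 to 1.95) and smad5 per smad1 count 1.12-fold (0.750 to 1.68). In these intervals a change of more than 2-fold is allowed for smad9 against smad1 alone. In both libraries smad5 had the highest level of the 3. The intervals of smad1 and smad9 overlapped in each library, although their order turned.

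The Id genes encode helix-loop-helix proteins that bind other such factors and keep them from DNA, and many embryonic cell types express them. id1 (ENSDARG00000040764) was at 142 FPKM in the sibling library and 191 in the mutant one, with 813 and 1183 counts and a ratio of 1.33 (1.22 to 1.46). id3 (ENSDARG00000054823) was at 45.1 and 83.3 FPKM, with 301 and 603 counts and a ratio of 1.84 (1.60 to 2.12). Neither pair of levels overlapped in its counting intervals. id3 per id1 count was 0.370 in siblings and 0.510 in mutants, a change of 1.38-fold (1.16 to 1.63), so the 2 Id genes did not differ in step. A log2 fold as high as that of id3 (0.87) was seen in 10.9% of the genes past the limits, and one as high as that of id1 (0.42) in 35.6%.

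**Figure D2:**
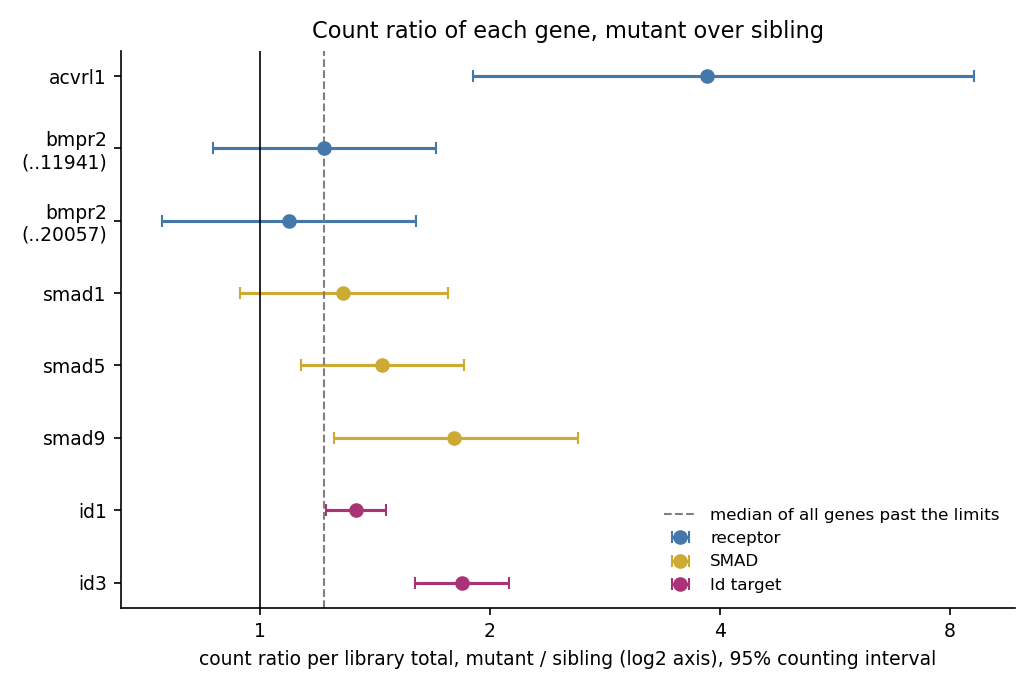
Count ratio per library total, mutant over sibling (log2 axis), of the 8 genes with 95% counting intervals, coloured by role. The solid line marks 1 and the dashed line the median gene at 1.21; acvrl1 lies at 3.85, and the intervals of both bmpr2 genes and of smad1 hold 1.

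Summed by role, the counts of all 3 groups were higher in the mutant library, and the receptor value rested on acvrl1. The summed counts of the 3 receptor genes were 128 in siblings and 191 in mutants, a ratio of 1.37 (1.09 to 1.73). Those of the 3 SMAD genes were 230 and 368, a ratio of 1.47 (1.24 to 1.74). Those of the 2 Id genes were 1114 and 1786, a ratio of 1.47 (1.36 to 1.59). SMAD counts per Id count changed 0.998-fold (0.830 to 1.2), receptor counts per SMAD count 0.933-fold (0.700 to 1.24) and receptor counts per Id count 0.931-fold (0.731 to 1.19). Without acvrl1, the receptor sum was 118 and 149 counts, a ratio of 1.16 (0.903 to 1.49), an interval that holds both 1 and the median gene. The interval with acvrl1 included lay above 1 but also held the median gene, at 1.21. That of the SMAD sum began just above the median gene.

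In each library the order of levels in FPKM ran from id1 and id3 at the top to acvrl1 and the bmpr2 gene ENSDARG00000020057 at the bottom. In the sibling library the order was id1, id3, bmpr2 ENSDARG00000011941, smad5, smad1, smad9, bmpr2 ENSDARG00000020057 and acvrl1. Its neighbours with overlapping counting intervals were ENSDARG00000011941 and smad5, smad1 and smad9, and smad9 and ENSDARG00000020057. In the mutant library smad5 stood before ENSDARG00000011941, smad9 before smad1, and acvrl1 before ENSDARG00000020057. The intervals of each of these 3 pairs overlapped there. The exchange of places at the bottom follows the difference of acvrl1, which lay clear of ENSDARG00000020057 in the sibling library and not in the mutant library.

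Endothelial markers also stood higher in the mutant library, in the median by more than the SMAD, Id and bmpr2 genes did. For all genes past the limits, 7.72% were called higher and 1.05% lower, with a median log2 fold of 0.27. Of 23 pan-endothelial genes listed, 18 passed the limits and 13 of those were called higher and 0 lower, with a median log2 fold of 1.39. Their summed level was 159.9 FPKM in the sibling library and 379 in the mutant one, and all 23 were listed in both. The summed counts of the 23, with no limit, had a ratio of 2.411 (2.295 to 2.533). Of the genes called higher, cdh5, tie1, erg, she, myct1, rasip1 and plvapb reached 5 FPKM in the mutant library alone, where they were higher. kdrl had a count ratio of 3.33 (2.86 to 3.89), cdh5, which encodes VE-cadherin, 4.57 (3.58 to 5.91) and the receptor gene tie1 2.54 (1.96 to 3.31). Arterial markers, 13 genes, summed to 108 and 233 FPKM, and venous markers, 10 genes, to 58.6 and 95.5 FPKM. Markers of other cells moved as well. Of the mural and fibroblast genes past the limits, 5 of 12 were called higher and 0 lower, with a median log2 fold of 0.49. Among those called was pdgfra, with a count ratio of 4.87 (3.87 to 6.2). By counts, 10 of the 15 mural genes with at least 20 counts had an interval above 1 and 1 had it below (all genes: 40.1% and 7.51%). The latter, a postn gene (ENSDARG00000104267) named after its values were seen, had a ratio of 0.872 (0.796 to 0.956). Of the myeloid genes, 4 of 8 were called higher and 0 lower, with a median of 1.07. Skeletal muscle genes were called lower in 14 of 15 cases and epidermal genes in 5 of 12, with 1 epidermal gene higher. Of 14 neural genes 1 was called lower, and of 13 erythroid genes none was called, with a median of -0.24. By counts, however, 11 of 13 erythroid genes had an interval below 1 and 2 had it above. Summed levels were 390 and 499 FPKM for the mural, 663 and 950 for the myeloid, 1078 and 307 for the muscle, 1406 and 1137 for the epidermal, 416 and 426 for the neural and 367596 and 279534 for the erythroid list. The genes of the muscle, epidermal and neural lists were all present in both libraries. Listed for mutants alone were lyve1b of the venous list, at 20 counts and 3.79 FPKM, acta2 of the mural list and a slc4a1 gene of the erythroid list. A mfap4 gene of the myeloid list was listed for siblings alone. The part of these markers in the values of the BMP genes was not tested.

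Set against endothelial transcripts, acvrl1 differed by less than its counting error. Per 100 kdrl counts there were 4.63 acvrl1 counts in siblings and 5.35 in mutants, a change of 1.16-fold (0.559 to 2.63). Against the summed counts of the 23 pan-endothelial genes, 2208 and 5804, the change of acvrl1 was 1.60-fold (0.787 to 3.58). Without tal1 and lmo2, which blood cells express too, it was 1.18-fold (0.581 to 2.65). Against cdh5 it was 0.842-fold (0.395 to 1.97) and against tie1 1.52-fold (0.707 to 3.55). All 5 intervals hold 1, and all but that against cdh5 also hold changes of more than 2-fold upward.

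The other 7 genes stood lower per endothelial count, and so did the median gene. Its count ratio per library total was 1.21, beside 3.33 for kdrl, 4.57 for cdh5, 2.54 for tie1 and 2.41 for the pan-endothelial sum. The share of all genes that stood lower in this way was not computed. Per 100 kdrl counts, the bmpr2 gene ENSDARG00000011941 had 30.1 counts in siblings and 11.0 in mutants (0.364-fold, 0.252 to 0.529), and smad5 had 51.4 and 22.3 (0.434-fold, 0.325 to 0.582). id1 had 376 and 151 counts per 100 kdrl counts, a change of 0.400-fold (0.334 to 0.478), and id3 had 139 and 76.8, a change of 0.551-fold (0.447 to 0.680). The interval was below 1 for all 7 against kdrl and against cdh5. Against tie1 and against the pan-endothelial sum it was so for 6 of them, with smad9 at 0.707-fold (0.450 to 1.12) and 0.745-fold (0.517 to 1.09). With tal1 and lmo2 left out of that sum, the interval was below 1 for all 7, with smad9 at 0.550-fold (0.381 to 0.804). The direction of these 7 genes therefore depends on the denominator: they were higher per library total and lower per endothelial marker count. The markers themselves stood higher in the mutant library, and the sort held other cells too. The ratios to markers are thus not levels within endothelial cells.

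**Figure D3:**
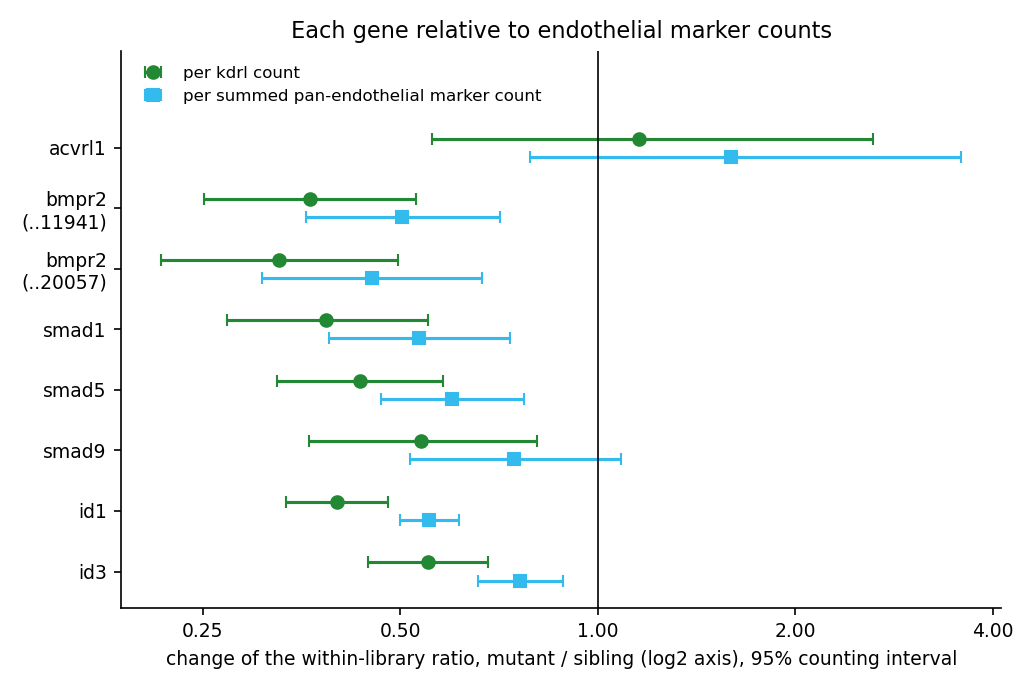
Change, mutant over sibling (log2 axis), of the counts of each gene per kdrl count (circles) and per summed count of 23 pan-endothelial genes (squares), with 95% counting intervals. acvrl1 lies at 1.16 and 1.60 with intervals that hold 1, whereas the other genes lie below 1.

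The rest of the pathway was described from lists by role. Of 70 other BMP pathway genes listed, 35 passed the limits; 5 of them were called higher (14.3%, beside 7.72% of all genes) and 0 lower, with a median log2 fold of 0.53 beside 0.27 for all genes. By counts, 30 of 54 with at least 20 counts had an interval above 1 (55.6%, beside 40.1% of all genes) and 3 one below 1 (all genes: 7.51%). The 5 called higher were bmpr1ba, rgmd, skil, fst and bmp1. Of these, bmpr1ba, fst and bmp1 reached 5 FPKM in the mutant library alone, where they were higher. With no limit, the median log2 fold of the other BMP pathway genes was 0.40.

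Ligand genes were low, and none of 14 listed reached the limits. The gene of highest mean level was a bmp2 gene (ENSDARG00000041430), at 2.71 FPKM in the sibling library and 4.06 in the mutant one. bmp16 had the largest log2 fold, 1.3, at 0.23 and 2.03 FPKM, with 4 and 38 counts and a ratio of 8.71 (3.14 to 33.6). bmp4, named after its values were seen, went the other way, with 48.6 and 31.0 counts and a ratio of 0.580 (0.358 to 0.928). A gene named bmp10 (ENSDARG00000061769), picked after its values were seen because BMP10 is a ligand of Alk1, had 9 and 14 counts with a ratio of 1.43 (0.575 to 3.74). gdf2, the gene for BMP9, is not analysed here.

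Of the other type I receptors, 4 of 5 passed the limits and 1 was called higher (all genes: 7.72%). bmpr1ba was at 2.05 FPKM in the sibling library and 6.04 in the mutant one, with 27 and 80 counts and a ratio of 2.72 (1.74 to 4.37). The most abundant, acvr1l, was at 23.6 and 23.8 FPKM, but its listed length differed and its counts of 405 and 511 gave a ratio of 1.16 (1.01 to 1.32). The other type II receptors, the activin receptor genes, lay close together. Their log2 folds ran from 0.04 to 0.12 in the 3 that passed, and acvr2a was at 14.9 and 16.2 FPKM (count ratio 1.05, 0.910 to 1.21). None of these 3 lay above the median gene by its log2 fold, and neither did the bmpr2 genes.

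Of the co-receptors, 3 of 5 passed the limits and 1 was called higher (all genes: 7.72%). That gene, rgmd, of the repulsive guidance molecule family that binds BMP ligands, was at 6.66 and 23.9 FPKM. Its 79 and 308 counts gave a ratio of 3.58 (2.78 to 4.64). The other genes that passed, named after their values were seen, were rgma at 1.55 (1.22 to 1.99) and rgmb at 0.949 (0.698 to 1.29). Of the SMAD4 genes, the more abundant (ENSDARG00000075226) was at 10.7 and 15.9 FPKM, a ratio of 1.49 (1.23 to 1.82). The other (ENSDARG00000012649), named after its values were seen, was at 5.56 and 4.39 FPKM, with 60 and 47 counts and a ratio of 0.718 (0.480 to 1.07).

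Genes for inhibitory SMADs and receptor regulators passed the limits in 12 of 13 cases, with a median log2 fold of 0.56 (all genes: 0.27), and 1 was called higher (all genes: 7.72%). That gene, a skil gene (ENSDARG00000023933) for a SMAD co-repressor, was at 6.07 and 14.2 FPKM. Its listed length fell from 2108 to 1429 bases, and by counts its ratio was 1.56 (1.16 to 2.11). fkbp1aa, which encodes a protein that binds type I receptors and keeps them inactive, had the highest level, at 180 and 251 FPKM (ratio 1.35, 1.24 to 1.48). The count interval was above 1 for 9 of the 13 and below 1 for none, beside 40.1% and 7.51% of all genes.

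Secreted antagonists and modulators had 2 of the 6 genes past the limits called higher (all genes: 7.72%). Both reached 5 FPKM in the mutant library alone. A fst gene (ENSDARG00000057992) for follistatin, which binds activins and some BMPs, was at 1.08 FPKM in the sibling library and 9.19 in the mutant one. Its 13 and 119 counts gave a ratio of 8.39 (4.73 to 16.2). A bmp1 gene (ENSDARG00000028071), for a protease that cleaves the BMP antagonist chordin, was at 3.40 and 10.5 FPKM (ratio 3.07, 2.36 to 4.04). The most abundant, an fstl1 gene (ENSDARG00000039576), was at 22.1 and 26.3 FPKM, while its counts, which are not divided by the larger length listed for mutants, had a ratio of 1.84 (1.63 to 2.09). bmper, for a secreted protein that binds BMPs, was named after its values were seen and stood lower, at 10.9 and 7.53 FPKM with a ratio of 0.762 (0.598 to 0.970).

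Among further target genes, none of the 5 that passed the limits was called, and their median log2 fold was 0.10. An id2 gene (ENSDARG00000055283) was at 21.6 and 29.4 FPKM, a ratio of 1.34 (1.1 to 1.65), close to that of id1. atoh8, a transcription factor gene downstream of BMP9 in endothelial cells of mammals, was at 1.33 and 3.43 FPKM, under the limits, with a ratio of 2.58 (1.43 to 4.89). id4, named after its values were seen, went the other way at 5.74 and 3.39 FPKM, with a ratio of 0.588 (0.341 to 0.996). Of the Id genes named, id4 alone stood lower, with an interval that ended just under 1.

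The related TGF-beta and activin branch signals through SMAD2 and SMAD3. Of 20 genes listed, 11 passed, 1 was called higher and 0 lower, with a median log2 fold of 0.62. Among all genes past the limits, 7.72% were called higher and 1.05% lower, with a median of 0.27. The gene of this branch that was called was tgfb1b, a ligand gene, at 2.11 and 6.29 FPKM (ratio 2.97, 1.70 to 5.45). The difference between the branches was not tested.

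**Figure D4:**
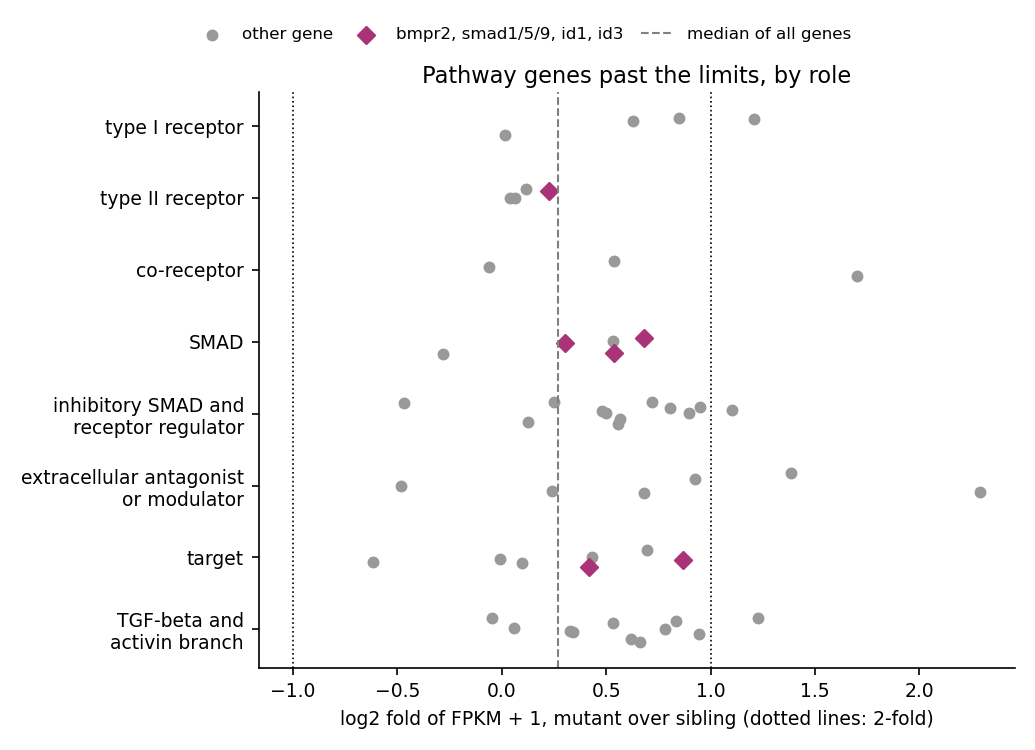
Log2 fold of FPKM + 1, mutant over sibling, of the pathway genes past the limits by role; diamonds are bmpr2 ENSDARG00000011941, smad1, smad5, smad9, id1 and id3, and circles are other genes of the lists. The dashed line is the median of all genes at 0.27 and the dotted lines mark 2-fold; the diamonds lie between 0.22 and 0.87, and 6 circles lie past 2-fold, all on the higher side.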

How the data were processed

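For each library the authors deposited a table of Ensembl genes that lists length, FPKM and expected count. The tools named by the submitters' processing notes are RSEM, Bowtie2, BWA and bcl2fastq 2.16, with the build GRCz10 and no role for each; the sources used here give no annotation release. Deposited expected counts from the authors are not normalized. The deposited FPKM is per gene length and library, with no scaling between libraries, and follows the listed length closely but not exactly. Lengths are listed per library. A gene in 1 table alone was set to 0 in the other.

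Expected counts were rounded. Count ratios per library total have exact conditional binomial (Clopper-Pearson) intervals; ratios within a library have conditional odds-ratio intervals; levels have exact Poisson intervals (scipy 1.17.1). Log2 folds used a pseudocount of 1. TMM factors came from edgeR 4.0.16. With 1 library per group there is no test and nothing to leave out. The calculations were tested on simulated counts.

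A name table matched 91.3% of the genes; a symbol was tried as written, then without its paralog letter, so 1 symbol can cover several genes, whose shared reads may be divided. The genes and lists were chosen with earlier results of these data known. Genes named beyond the 8 are those called, the most abundant and the one of largest log2 fold per list (mean FPKM of at least 1), and fixed cell markers. Alternatives covered scale, length, pseudocount and low-value limits. No genome coordinates or sequences were used. Of the TGF-beta and activin list, 1 gene is not reported here.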

Additional observations from a re-analysis of the deposited data

How the results depend on the processing

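No paired analysis was possible because each group has 1 library. Of 64 log2 folds of the 8 genes under the 8 alternatives of scale, length and pseudocount, 56 stayed within the counting interval of the main value. Those outside it were id1, at 0.57 in TPM, 0.14 under TMM, 0.13 under median of ratios, 0.25 without the 10 highest genes and 0.15 once centred, and id3, at 0.60 under TMM, 0.58 under median of ratios and 0.60 once centred. These scalings set the median of all genes, 0.27 in the main values, to 0.41 (TPM), 0.01 (TMM), 0.00 (centred) and 0.11 (without the 10 highest genes), and to below 0.01 in size under median of ratios. acvrl1 ranged from 0.44 (pseudocount 5) to 1.93 (pseudocount 0.1), all within an interval that is wide because its counts were low. The interval was that of the count ratio, moved on the log2 scale to the main value, so the pseudocount did not narrow it. Staying within the interval is thus a weak check for genes of few counts or low level. All values of acvrl1, the SMAD genes and the Id genes stayed above 0, whereas the bmpr2 genes fell below 0 in 3 and 4 of 8 alternatives.

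Per pan-endothelial marker count, an alternative chosen after seeing the data, the log2 values were -0.99 (bmpr2 ENSDARG00000011941), -1.15 (bmpr2 ENSDARG00000020057), -0.91 (smad1), -0.74 (smad5), -0.43 (smad9), -0.85 (id1) and -0.39 (id3). For acvrl1 the value was 0.68, above 0. The marker count used for all these values included tal1 and lmo2.

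The number of the 8 genes called higher went from 0 to 1 in TPM, with no limit and with limits of 1 FPKM and 20 counts. In TPM the gene was id3, at a log2 fold of 1.02, and under the changed limits it was acvrl1, at 1.17. By the count interval, also added after seeing the data, 5 of the 8 lay above 1 and 4 above the median gene. The shares of all genes with at least 20 counts were 40.1% and 20.3%. Of the other BMP pathway genes, 5 were called higher in the main values and 8 in TPM. The number was 7 with a pseudocount of 0.1, with no limit and with limits of 1 FPKM and 20 counts. Without the 10 highest genes it was 4. It was 3 under TMM, median of ratios, centring and limits of 10 FPKM and 50 counts, and 2 with a pseudocount of 5. With no limit, 1 was called lower. Of all genes, 667 were called higher and 91 lower (88.0% of calls higher). These became 353 and 174 under TMM (67.0%), 347 and 179 under median of ratios (66.0%), 320 and 186 once centred (63.2%), 193 and 40 with a pseudocount of 5, 1205 and 292 with no limit, and 372 and 42 with limits of 10 FPKM and 50 counts; without the 10 highest genes there were 495 and 143 (77.6%). The calls of all genes also rose in TPM, to 948 higher and 72 lower (92.9% higher). They were 883 and 115 with a pseudocount of 0.1, and 939 and 125 with limits of 1 FPKM and 20 counts. At 10 and 42 counts, the depth limits acvrl1 to an interval from 1.90 to 8.61.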
